A study of Mus musculus with 16 samples.

Results

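The 9 genes of 1 signalling route, called Rac regulators here, were followed through the hippocampus of 2 mouse lines: the GTPase Rac1 and Elmo1, Elmo2, Dock1, Dock4, Vav2, Tiam1, Arhgap24 and Arhgap22. They were taken by gene symbol from the platform annotation, which gave 9 of 16593 named genes and 25 of 25697 probes. Elmo1 and Arhgap24 were chosen by the difference between their desipramine (DMI) and saline arrays in the HA line, and the other 7 genes because they act beside them. Values of the HA treatment contrast are therefore a description, and no test is given for them.

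RNA of the hippocampus was hybridised to 16 Illumina MouseRef-8 v2 arrays, which are read in 1 colour. The 4 groups of 4 arrays were male Swiss-Webster mice of the HA or the LA line, bred for high or low swim stress-induced analgesia, given either DMI or saline. DMI, a tricyclic antidepressant that blocks noradrenaline reuptake, was injected intraperitoneally 21 times at 7.5 mg/kg/day. The labels give an age of 15 weeks for every group and carry 1 treatment text, that of DMI, for saline samples too, and the study's own text gives other ages. By the study's methods each array held RNA pooled from several mice, so n counts pools, and pooling is not mentioned in the labels. In such tissue samples fewer cells of a type and less RNA per cell cannot be told apart.

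Rac1 is a small GTPase that is active when it binds GTP and that drives actin assembly, membrane ruffling and the shaping of dendritic spines. Exchange factors load it with GTP: Tiam1 and the Vav proteins do so through a Dbl-type domain, and Dock1 and Dock4 through a different domain, with Elmo1 or Elmo2 as the partner that holds Dock proteins at the membrane. Arhgap24 and Arhgap22 are GTPase-activating proteins that switch Rac off.

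The 2 windows below are shown because the Elmo1 probes carry 2 transcript records and RefSeq lists 2 distant starts for the gene. RefSeq (GRCm38.p6) places Elmo1 on chromosome 13 from 20090507 to 20608353, with both starts on the plus strand, 382 kb apart. Each window holds the 250 bases before a start and the 50 after it, with CG pairs in capitals. The table does not say which transcript record uses which start.
Elmo1, chr13:20090257-20090556: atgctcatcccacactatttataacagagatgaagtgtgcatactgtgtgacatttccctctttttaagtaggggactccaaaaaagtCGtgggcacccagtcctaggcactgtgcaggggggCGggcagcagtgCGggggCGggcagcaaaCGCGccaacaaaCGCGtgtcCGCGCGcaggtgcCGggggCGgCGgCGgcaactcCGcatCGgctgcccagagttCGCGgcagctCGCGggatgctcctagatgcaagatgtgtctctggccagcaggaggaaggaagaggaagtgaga
Elmo1, chr13:20472740-20473039: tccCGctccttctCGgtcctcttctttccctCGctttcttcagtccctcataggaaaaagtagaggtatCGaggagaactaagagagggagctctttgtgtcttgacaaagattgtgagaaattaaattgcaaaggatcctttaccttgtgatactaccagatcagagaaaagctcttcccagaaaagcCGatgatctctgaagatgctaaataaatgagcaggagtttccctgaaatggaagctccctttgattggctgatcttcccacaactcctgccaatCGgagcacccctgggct
The upstream window had 60% GC and 21 CG pairs, a number reached by 24.8% of 32851 RefSeq windows of the same length. The downstream window had 46% GC and 6 CG pairs, a number reached by 56.4% of windows. On either strand the letters TATAAA were in the upstream window alone of this pair and in 13.6% of all windows, and CCAAT was in the downstream window alone of this pair and in 37.4% of all windows. Of the 9 members 7 had windows in the table, 11 in all. Arhgap24 and Rac1 had none.

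Of the 25 member probes 14 were detected (detection p under 0.05, the signal set against negative controls of the same array) on at least 4 arrays, against 14583 of all probes. Of the 25, 8 were detected on all 16 arrays and 6 on no array. On the normalized log2 scale the median level was 6.47 for probes detected nowhere and 7.95 for probes detected on all arrays, so levels near 6.5 are at background. Levels of different probes are not compared as amounts of RNA, since each probe binds with its own strength.

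Elmo1 had 14 probes, and only 2 of them gave clear signal. The 12 probes annotated to the first transcript record had mean levels from 6.43 to 6.69. None of the 12 was detected on all arrays, 4 were detected on none, and the most often detected was so on 12 arrays. The 2 probes annotated to the second record, ILMN_2658407 and ILMN_1237174, were detected on all 16 arrays with mean levels of 9.81 and 7.11. The plot of the 14 probes sets their levels against their differences.

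**Figure D1:**
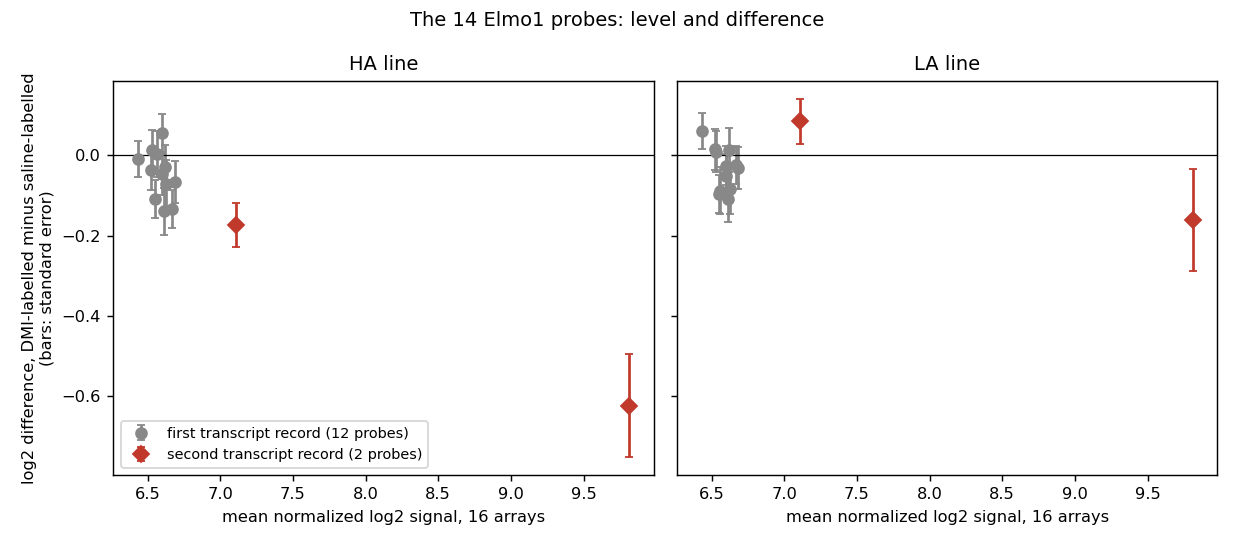
The 14 Elmo1 probes, with the mean normalized log2 signal over 16 arrays on the x axis and the log2 difference between DMI-labelled and saline-labelled arrays on the y axis (bars, SE), in HA (left) and LA (right). The 12 grey probes of the first transcript record lie between 6.43 and 6.69, and the 2 red probes of the second at 7.11 and 9.81.

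At Elmo1 ILMN_2658407 the HA saline arrays read 10.24, 10.22, 10.29 and 10.19 on the normalized log2 scale, and the HA DMI arrays 9.65, 9.61, 9.45 and 9.73. The 2 HA groups did not overlap, and the saline-labelled arrays were the higher. The LA saline arrays read 9.52, 10.20, 9.57 and 9.83, and the LA DMI arrays 9.98, 9.56, 9.37 and 9.57. The LA groups overlapped, and 1 array in each stood above its others.

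The HA difference of that probe, DMI-labelled minus saline-labelled, was -0.62 (SE 0.13, n = 4 arrays per group). Its size ran from -0.66 to -0.57 when each array was left out, and in 10 of these 16 fits it no longer met the rule that chose it. This sign, taken from the sample labels, is opposite to that in the study's table. The same held for 71 of the 71 tabulated HA probes looked up here, both member probes among them. In LA the study's text reports Ttr, Igfbp2, Otx2 and Igf2 as raised by DMI. By the labels their LA differences here were -1.49, -0.60, -0.53 and -0.62, so the signs of these genes were opposite in LA too. The paper reports that qPCR in individual mice matched its array results, with Gbx2 and Chrna4 among the HA genes. It lists both as raised by DMI, while by the labels they differed by -1.05 and -0.69 in HA here. Whether the labels or the study's signs are right was not settled. Groups are therefore named by their labels, and nothing is said of the direction of the drug's action.

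The LA arrays were not used to choose Elmo1. There the difference of ILMN_2658407 was -0.16 (SE 0.13; limma, adjusted p = 0.80). The second bright probe, ILMN_1237174, differed by -0.17 in HA (SE 0.06) and by 0.09 in LA (SE 0.06; limma, adjusted p = 0.73). Over the 16 arrays the 2 probes had a Pearson r of 0.70, and of 0.70 after group means were removed, given as a description of arrays that share their groups. The 12 dim probes had HA differences from -0.14 to 0.06 and LA differences from -0.11 to 0.06.

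Arhgap24, an off switch of Rac, is on chromosome 5 from 102207198 to 102905035 (GRCm38.p6) and had 2 probes. At ILMN_2728038 the HA saline arrays read 8.33, 8.30, 8.36 and 8.21 and the HA DMI arrays 7.86, 7.79, 7.67 and 7.76, with no overlap. The LA saline arrays read 7.60, 7.83, 7.66 and 7.71 and the LA DMI arrays 7.61, 7.63, 7.63 and 7.51, which overlapped. The order of group means was HA saline, HA DMI, LA saline, LA DMI.

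The HA difference of this probe was -0.53 (SE 0.06), a description since it chose the gene. In LA it was -0.10 (SE 0.06; limma, adjusted p = 0.63). Between the lines, averaged over both treatments, HA was higher by 0.39 (SE 0.04; limma, adjusted p = 2.8e-06). The difference in that contrast is orthogonal to the one that chose the gene, since each treatment counts equally in it. Both contrasts share 1 estimate of the probe's spread, however, so the p is not wholly free of the choice. The thalamus and habenula markers described further on were also higher in HA by this contrast. Their median was 0.26, with 14 of 34 genes higher and 0 lower by limma's adjusted p. The choroid plexus list was higher by more, with a median of 0.65 and 17 of 19 genes higher and 0 lower. The part of either tissue in the Arhgap24 value was not tested. HA exceeded LA by 0.61 on saline-labelled and by 0.18 on DMI-labelled arrays. In neither treatment did the 4 HA arrays overlap the 4 LA arrays, and the share of all probes without such overlap was not counted. Taken by treatment, these values are not orthogonal to the HA contrast that chose the gene, so they are a description. The other probe, ILMN_2750062, was detected on 4 arrays only, with group means from 6.58 to 6.66 and a line difference of 0.06 (SE 0.05; limma, adjusted p = 0.55). The 2 Arhgap24 probes had a Pearson r of 0.20 over 16 arrays, and of -0.27 after group means were removed, and they carry different transcript records.

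**Figure D2:**
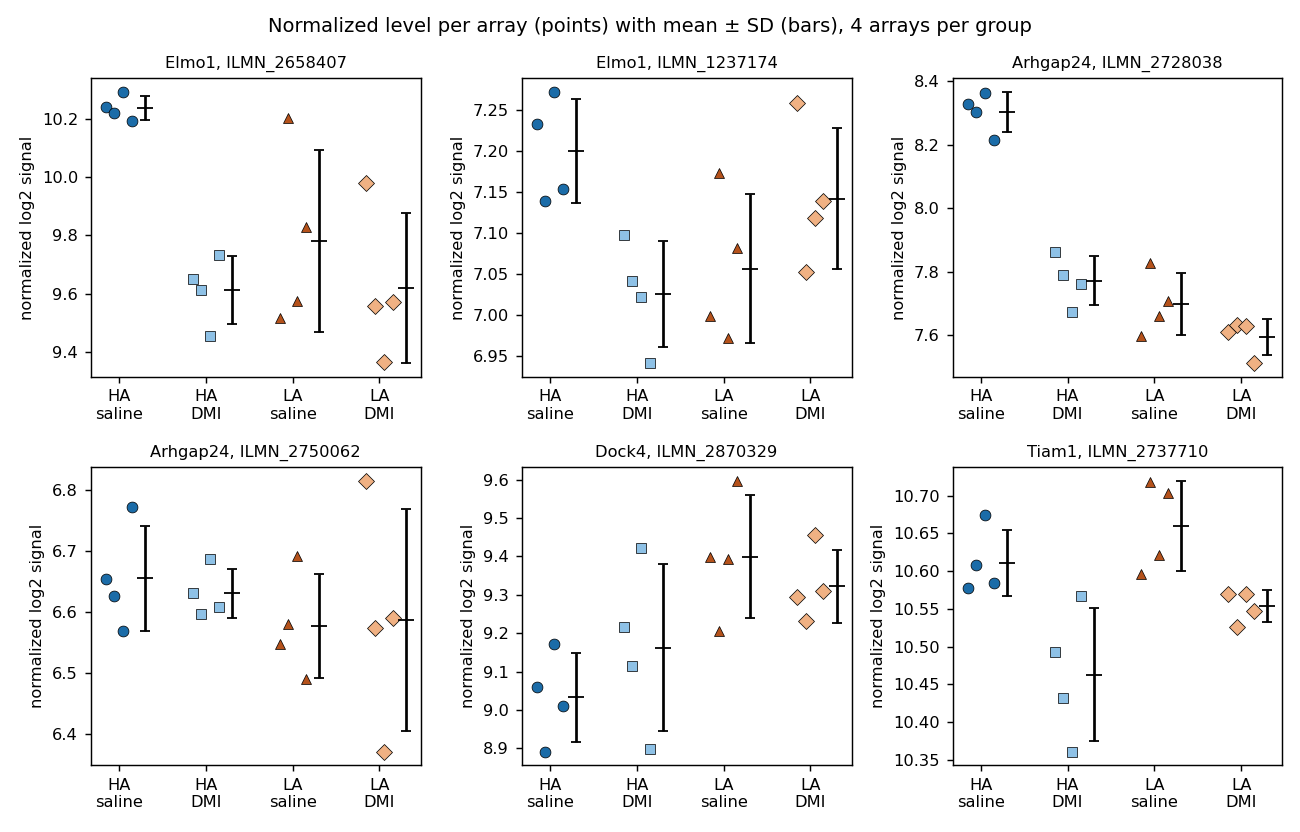
Normalized log2 signal on each of 16 arrays (points) with the group mean ± SD (bars, n = 4) for 6 member probes; each panel has its own y axis, which does not start at 0. HA saline arrays are highest at Elmo1 ILMN_2658407 (mean 10.24) and Arhgap24 ILMN_2728038 (mean 8.30), apart from 1 LA saline array of Elmo1 at 10.20.

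Whether the probes of 1 gene moved apart was tested in LA alone, on the gap between the brightest probe and each other probe detected on at least 4 arrays. Of 6 such pairs only that of the 2 Elmo1 probes detected on all arrays had both probes clear of background. Its gap changed by -0.25 between DMI-labelled and saline-labelled arrays (exact two-sided permutation p = 0.143, 0.771 after adjustment over the 6 pairs, where 0.0286 is the smallest unadjusted p that 4 against 4 arrays allow). In HA the same gap changed by -0.45, which is a description. In the other 5 pairs the partner probe was near background, so the gap mainly carries the change of the bright probe.

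Among the partners of Elmo1, Dock4, an exchange factor for Rac, differed between the lines. HA saline arrays read 9.06, 8.89, 9.17 and 9.01, and LA saline arrays 9.40, 9.21, 9.39 and 9.60, with no overlap. On saline-labelled arrays the lines did not overlap at 4 member probes, those of Dock4 and Arhgap22, Arhgap24 ILMN_2728038 and Elmo1 ILMN_1249680. On DMI-labelled arrays they did not at 2, Arhgap24 ILMN_2728038 and Elmo2. The share of all probes without overlap between the lines was not counted, so these counts have no background beside them. By another measure, limma's unadjusted p under 0.05, 18.1% of all probes differed between the lines on saline-labelled and 16.3% on DMI-labelled arrays. For Dock4 the HA DMI arrays read 9.22, 9.11, 9.42 and 8.90 and the LA DMI arrays 9.29, 9.23, 9.46 and 9.31, which overlapped. Over both treatments Dock4 was lower in HA, with a log2 difference of -0.26 (SE 0.07; limma, adjusted p = 0.015). This shrank to -0.03 (limma, adjusted p = 0.86) when arrays were scaled to a common median instead of quantile normalized. Within the lines the Dock4 differences were 0.13 in HA and -0.08 in LA.

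Elmo2, the close relative of Elmo1, had group means of 7.87 (HA saline), 7.91 (HA DMI), 7.99 (LA saline) and 8.13 (LA DMI). Its line difference was -0.18 (SE 0.07; limma, adjusted p = 0.10), which turned to 0.01 under median scaling, and its LA difference 0.14 (SE 0.09; adjusted p = 0.74). Dock1, the founding Elmo partner, was detected on 15 arrays at means from 6.80 to 6.87, with differences of 0.05 in HA, 0.07 in LA and 0.01 between the lines.

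Of the Dbl-type exchange factors, Tiam1 was bright on all arrays. Its group means were 10.61 (HA saline), 10.46 (HA DMI), 10.66 (LA saline) and 10.55 (LA DMI), each with an SD of at most 0.09. The saline-labelled arrays were above the DMI-labelled ones with no overlap in both lines. In LA the difference was -0.11 (SE 0.05; limma, unadjusted p = 0.038, adjusted p = 0.54), and in HA it was -0.15. Under median scaling the LA difference turned to 0.04. The 3 Vav2 probes were at background, with mean levels from 6.47 to 6.59 and detection on at most 1 array, so Vav2 was not measurable here.

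Arhgap22, which like Arhgap24 switches Rac off, read 7.04, 7.12, 6.91 and 6.90 on HA saline arrays and 6.77, 6.87, 6.78 and 6.83 on LA saline arrays, with no overlap. The DMI-labelled arrays of the 2 lines overlapped, at means of 6.96 in HA and 6.88 in LA. Over both treatments HA was higher by 0.13 (SE 0.04; limma, adjusted p = 0.026). In 7 of the 16 fits that left out 1 array the adjusted p passed 0.05, reaching 0.059 without HA saline array 2. Rac1 itself had group means of 8.45 (HA saline), 8.54 (HA DMI), 8.38 (LA saline) and 8.41 (LA DMI), with a line difference of 0.10 (SE 0.07; limma, adjusted p = 0.43).

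**Figure D3:**
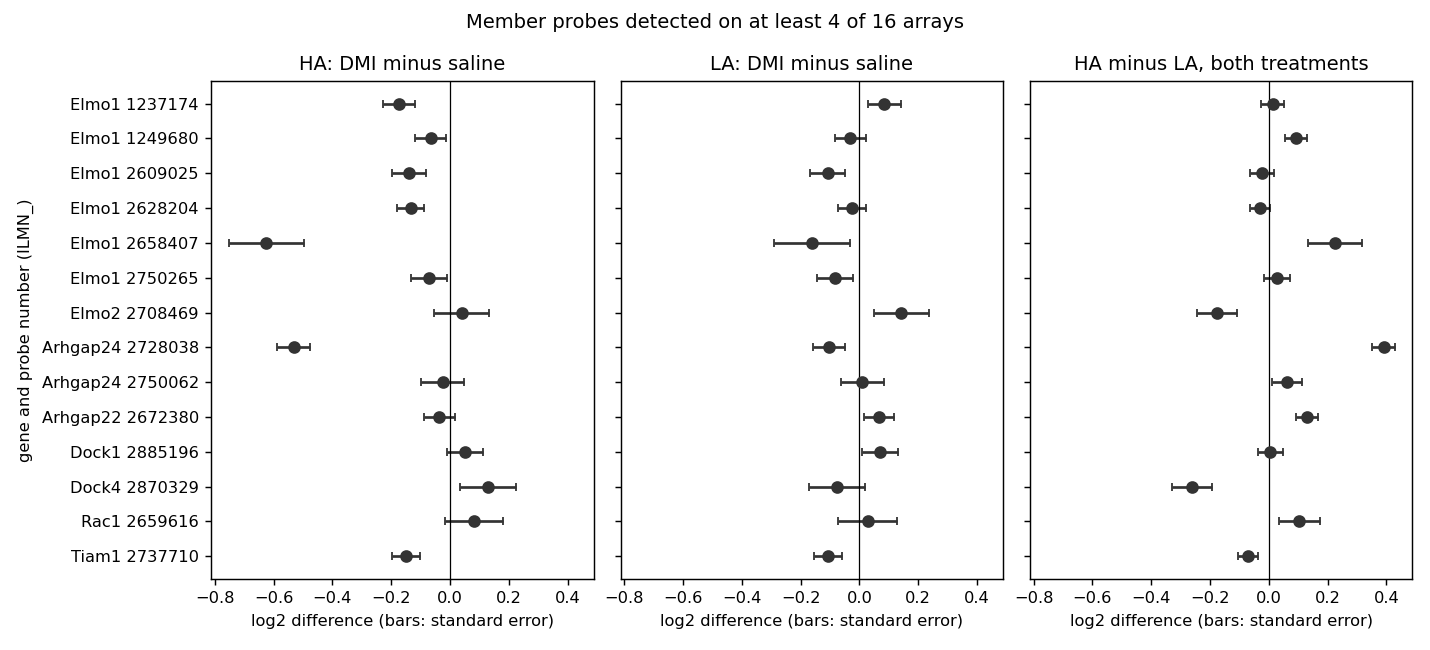
Log2 differences with SE (bars) for the 14 member probes detected on at least 4 arrays, DMI-labelled minus saline-labelled in HA (left) and LA (middle), and HA minus LA over both treatments (right). In HA, Elmo1 ILMN_2658407 (-0.62) and Arhgap24 ILMN_2728038 (-0.53) lie apart from the other probes, which run from -0.17 to 0.13.

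Counted over the 25 member probes, a call needed an adjusted p under 0.05 and a log2 difference over 0.5 in size. In HA 2 probes were called, by the rule that chose them, where 0.113% of all probes were called. The nearest probes outside that limit were Elmo1 ILMN_1237174 at -0.17 and Tiam1 at -0.15. In LA 0 member probes were called, where 0.0311% of all probes were. By limma's unadjusted p under 0.05, 1 LA member probe passed (Tiam1), against 8.68% of all probes.

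Between the lines 0 member probes were called, where 0.864% of all probes were, and 6 of 25 had an unadjusted p under 0.05 in limma, beside 23.4% of all probes. By the adjusted p alone 3 of 25 passed (Arhgap24, Arhgap22 and Dock4), beside 11.8% of all probes. Of the 14 detected probes these 3 were 21.4%, beside 20.3% of all detected probes. The members thus passed about as often as other probes did. The DMI-labelled and saline-labelled arrays did not overlap at 4 member probes in HA, beside 5.80% of all probes, and at 1 in LA (Tiam1), beside 3.95%. The 4 in HA were Elmo1 ILMN_2658407 and ILMN_1237174, Arhgap24 ILMN_2728038 and Tiam1. Among them ILMN_2658407 and ILMN_2728038 were chosen by this HA difference, so the HA count is a description. Median differences over the 25 probes were -0.03 in HA, -0.01 in LA and 0.01 between the lines.

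The wider Rac pathway was followed in lists of 100 genes, of which 78 were measured, each at its brightest probe, and 63 detected. In LA 0 of the 78 passed the adjusted p (limma). Between the lines 6 were higher and 7 lower in HA by the adjusted p alone, or 16.7%, between the 11.8% of all probes and the 20.3% of detected probes, and the median was 0.01. Only Arhgap32 also passed the limit on size, at -0.51 (SE 0.09; limma, adjusted p = 8.4e-04).

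By role, 4 of 16 Dbl-type exchange factors were lower in HA and 0 higher, at Kalrn (-0.42), Ngef (-0.42), Tiam2 (-0.34) and Mcf2l (-0.31). With arrays scaled to a common median only Tiam2 of these 4 still passed, at -0.20. Of 15 activating proteins 3 were higher (Arhgap24, Arhgap12 and Arhgap22) and 1 lower (Arhgap32). Of 10 GTPases Cdc42 (0.26) and Rhob (0.34) were higher, and of 26 effectors Arpc1a (0.23) was higher and Baiap2 (-0.26) lower. Under median scaling all 13 kept their sign, and 6 of the 6 higher but 2 of the 7 lower genes still passed. That scaling also raised the median line difference of all detected probes from 0.0037 to 0.098, and each of the 13 differences rose. An upward shift takes higher genes further from 0 and lower genes toward it. Its part in which genes still passed was not tested. These names, Arhgap32, Vav3 and the members aside, were picked with their values in view.

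**Figure D4:**
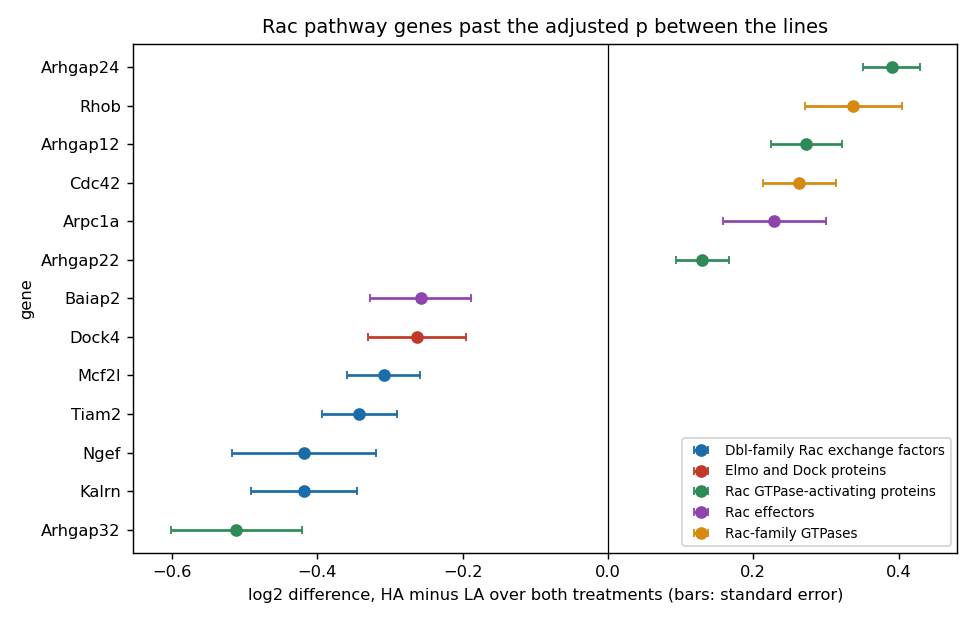
The 13 Rac pathway genes past the adjusted p between the lines, with the log2 difference HA minus LA over both treatments on the x axis (bars, SE) and colours for the role. Arhgap24 (0.39) is at the top and Arhgap32 (-0.51) at the bottom, and the 4 Dbl-type exchange factors shown are on the lower side. Vav3, of the same type, is not shown (0.28; limma, adjusted p = 0.054).

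Vav3, an exchange factor related to Vav2, is no member and was named because it is in the study's HA table. Elmo1 and Arhgap24 were chosen by the same HA contrast. The likeness of Vav3 to Elmo1 ILMN_2658407 and Arhgap24 ILMN_2728038 is therefore not independent of that choice and is a description. Its bright probe ILMN_1227993 had means of 8.47 ± 0.13 (HA saline), 7.91 ± 0.21 (HA DMI), 7.95 ± 0.26 (LA saline) and 7.87 ± 0.22 (LA DMI; SD, n = 4). Its differences were -0.56 in HA, -0.08 in LA (limma, adjusted p = 0.92) and 0.28 between the lines (limma, adjusted p = 0.054). Over 16 arrays its Pearson r was 0.93 with Elmo1 ILMN_2658407 and 0.85 with Arhgap24 ILMN_2728038, and these 2 had an r of 0.82 with each other. After group means were removed the 3 values were 0.83, 0.62 and 0.59. Vav3 had 2 other probes, both near background. ILMN_2495475, of the same transcript record, was detected on 10 arrays. It differed by -0.06 in HA, -0.03 in LA and 0.07 between the lines (limma, adjusted p = 0.28). ILMN_1222226 was detected on 2 arrays and differed by -0.10 in HA, 0.04 in LA and 0.01 between the lines.

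Among 13745 detected probes of other named genes, those most like Elmo1 ILMN_2658407 over the 16 arrays were Chrna4 (r = 0.97), Gbx2 (0.95), Rgs16 (0.95), Zfhx3 (0.94) and Tcf7l2 (0.94). Chrna4 encodes a nicotinic receptor subunit, and Gbx2 and Tcf7l2 transcription factors of the developing and adult thalamus. For Arhgap24 ILMN_2728038 they were Igsf1 (0.95), Cdr2 (0.94), Dbp (0.93), Calb2 (0.92) and Tcf7l2 (0.91). With group means removed the values for Elmo1 ran from 0.84 (Zfhx3) to 0.96 (Chrna4). Those for Arhgap24 ran from 0.31 (Tcf7l2, at another probe than for Elmo1) to 0.65 (Calb2), with Igsf1 at 0.64. The arrays share their groups, so these values describe likeness over 16 arrays and carry no p.

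The thalamus lies beside the hippocampus, and its marker list was high on the same arrays as Elmo1 ILMN_2658407 and Arhgap24 ILMN_2728038. Some lists of other cell types, given further on, were high on the HA saline arrays too. Of 36 listed thalamus and habenula genes 34 were measured and 31 detected, and Synpo2 was detected nowhere. Their summed signal ran from 12932 to 13302 on HA saline arrays, 7344 to 9038 on HA DMI, 6357 to 11061 on LA saline and 6541 to 9559 on LA DMI arrays. In HA 33 of the 34 differences were negative, with a median of -0.37, and in LA 26 were, with a median of -0.05. The list holds Vav3 and Chrna4, and 15 of its measured genes are in the study's HA table, so it is not independent of the HA contrast. Among the 50 probes most like each member, 12 of the listed genes appeared for Elmo1 and 8 for Arhgap24, each gene counted once. The probes searched numbered 13745 for Elmo1 and 13749 for Arhgap24. The part of thalamic tissue in the Elmo1 and Arhgap24 values was not tested.

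**Figure D5:**
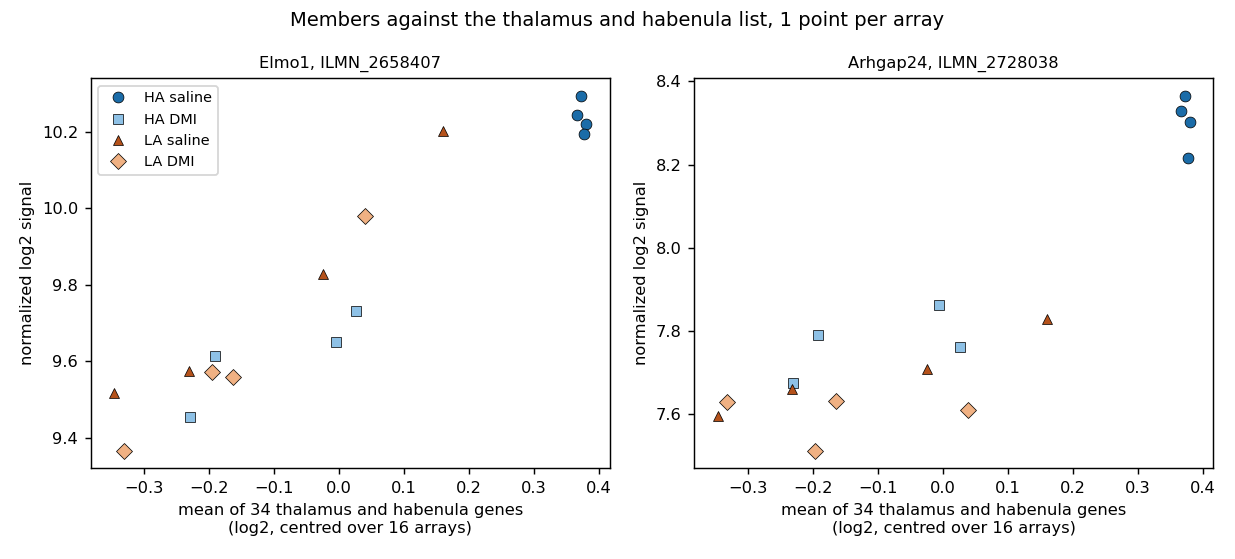
Normalized log2 signal of Elmo1 ILMN_2658407 (left) and Arhgap24 ILMN_2728038 (right) against the mean of 34 thalamus and habenula genes, centred over the 16 arrays (x axis, log2), 1 point per array. The 4 HA saline arrays lie together at 0.37 to 0.38 on the x axis, and the 1 LA saline array with an Elmo1 level of 10.20 is next at 0.16.

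Other lists moved less in HA, with medians of -0.15 for oligodendrocytes, -0.14 for leptomeninges, -0.12 for endothelium, -0.10 for astrocytes and 0.05 for microglia. Yet the centred means of HA saline arrays were 0.14 to 0.17 for leptomeninges, 0.10 to 0.16 for oligodendrocytes and 0.095 to 0.12 for astrocytes. For choroid plexus they were 0.38 to 0.50. The highest values elsewhere were 0.21 and 0.15 (both LA saline), 0.03 and 0.28 (both HA DMI), in that order. The endothelium, microglia, striatal neuron and hippocampal principal cell lists were not high there. The choroid plexus list had a median of 0.65 between the lines and of -0.47 in LA. The striatal neuron list had medians of -0.49 in LA, with 18 of 19 genes negative and 0 past the adjusted p in limma, and of -0.23 between the lines. Of 19 measured markers of hippocampal principal cells 17 were detected, with medians of 0.10 in HA and 0.07 in LA. Per array 12900 to 13886 probes were detected, the mean signal ran from 240 to 421, and arrays of 1 group correlated at 0.989 to 0.996 over all probes.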

How the data were processed

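Hippocampal RNA of 4 groups was measured on 16 arrays. The intensity values were deposited as a linear signal per probe, not normalized between arrays; no source used here names the reader's software. The p-value beside each signal is, per the file headers, its detection p. The authors also deposited log2 values, made by quantile normalization, which differed from those computed here by at most 0.0456 and served as an alternative.

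Signals were log2 transformed and quantile normalized in R 4.3.3, with no background subtraction, and 25697 probes were fitted in limma 3.58.1 (lmFit, eBayes; 1 mean per group). Calls needed a Benjamini-Hochberg adjusted p under 0.05 and a log2 difference over 0.5. Fits were tested on simulated data. The number of arrays limits the precision.

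Genes came from the platform annotation (23978 probes with 1 symbol, 0 with several, 1719 with none; 23962 gene IDs matched to GRCm38.p6). Named by plan were the member genes, Vav3, called pathway genes and the 5 probes most like Elmo1 and Arhgap24. Any other gene was picked with its values in view. The members and lists were chosen with earlier results of these data known. The study's tabulated fold changes were used for the sign check only. Alternatives were the authors' values, median scaling, background correction (offset 16), detected probes only, a replicate block, 1 line alone and leaving out each array.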

Additional observations from a re-analysis of the deposited data

Results flagged for a closer look

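Of 56 groups of 4 arrays checked for member probes, 2 held an array whose gap to its nearest neighbour was large against the group's whole range, where chance gives about 1 in 20. At Elmo2 ILMN_2708469 the HA DMI array 3 read 7.59 against 7.97 to 8.04 on the other arrays, a gap of 0.847 of the range. At Arhgap24 ILMN_2728038 the LA DMI array 4 read 7.51 against 7.61 to 7.63, a gap of 0.831 of the range.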

How the results depend on the processing

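For member probes in HA, the 2 calls became 0 under median scaling, 1 with background correction, 1 with the replicate block and 1 to 2 when each array was left out; the call lost was that of Elmo1 in each case but median scaling, which lost Arhgap24 as well. The differences themselves stayed as large: Elmo1 was -0.60 under median scaling, -0.68 with background correction and -0.62 with the block, and Arhgap24 -0.55 under median scaling (adjusted p = 0.31). Between the lines 0 calls became 1 under median scaling and 1 with background correction (0 in every leave-one-out fit), and the 3 probes past the adjusted p became 2 under median scaling and 2 to 4 in leave-one-out fits. Elmo1 ILMN_2658407 differed between the lines by 0.22 in the main fit (SE 0.09; limma, adjusted p = 0.13). It passed the adjusted p in 2 of 16 leave-one-out fits. These were without LA saline array 2, at 0.30 (adjusted p = 0.014), and without LA DMI array 1, at 0.28 (adjusted p = 0.029). Over all probes, 29 HA calls became 4 under median scaling, 60 with HA arrays alone and 8 to 47 in leave-one-out fits (8 without HA saline array 1, 47 without LA saline array 2). The 8 LA calls became 2 under median scaling, 3 with the replicate block, 0 with LA arrays alone, and 0 to 31 in leave-one-out fits (0 without LA DMI array 3, 31 without LA saline array 3). The 222 line calls became 500 under median scaling and 698 with background correction (214 to 244 in leave-one-out fits). The 1 called pathway gene became 2 under median scaling, 5 with background correction and 0 to 1 in leave-one-out fits (0 in 5 of 16). Under median scaling the sign turned for the Elmo2 line difference (0.0099), the Tiam1 LA difference (0.043) and line difference (0.17), the LA differences of Dock4 (0.035) and Arhgap24 ILMN_2750062 (-0.0081), and the Elmo1 gaps to ILMN_2609025 (0.064) and ILMN_2750265 (0.034). Of 910 single-probe alternatives 862 kept direction and side of the threshold, 24 changed side, 21 turned sign at a difference within 1 SE of 0, and 3 turned sign beyond that. The cause was not tested. Arrays with the same number did not deviate together (r from -0.39 to 0.24, 7 of 24 pairs over 0.1; 4 of 16 correlated best with their own number), so the numbers were not taken to pair arrays. Probes near background carry only a bound on change.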
